A study of Mus musculus with 8 samples.

Results

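The Hox genes are the 39 transcription factor genes of the 4 mammalian Hox clusters, and they were followed here in C2C12 cells, a mouse myoblast line, after silencing of the long non-coding RNA Pvt1. Members were all probes named Hoxa, Hoxb, Hoxc or Hoxd with a paralogue number. All 39 genes were present on the array, by 52 of its 56605 probes, among 37074 gene names. Gene expression was measured in 8 cultures of proliferating C2C12 myoblasts at passage 10, each on its own one-colour Agilent array. Control cells (4 cultures, "none (Mock)" in the labels) were transfected with Lipofectamine 2000 and negative control GapmeRs, and silenced cells (4 cultures) with the same reagent and 2 GapmeRs against Pvt1. GapmeRs are antisense LNA oligonucleotides that lead to the cutting of a matching RNA. All cultures came from 1 cell line, so neither group carried any other genetic difference by design, and no untransfected culture was analysed here.

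Hox proteins bind DNA through the homeodomain, whose recognition helix lies in the major groove, and most bind together with TALE homeodomain cofactors of the Pbx and Meis families. In the embryo the genes are switched on in the order in which they lie in the cluster, low paralogue numbers in the head and neck and high numbers in the lower trunk, limbs and tail. Adult cells, myoblasts included, keep part of the Hox pattern of the body region they came from.

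The GapmeRs given to the silenced cells are shown because they define that group, and each is 16 bases long (the sequences of the negative control GapmeRs were not used here):
Pvt1_1: accgtagtagagttaa
Pvt1_3: agtcaacgcttcacat
None of the 5 Pvt1 probes held the stretch that either GapmeR pairs with. Of the 52 Hox probes, 3 held at least 4 codons of the recognition helix. Of these, 2 are shown because their genes behaved differently: the Hoxc11 probe (chr15:102787015-102787074, build mm9, plus strand) was measured on all arrays, and the Hoxd10 probe (chr2:74532280-74532339, plus strand) was dark. Capitals mark the codons of the recognition helix.
Hoxc11: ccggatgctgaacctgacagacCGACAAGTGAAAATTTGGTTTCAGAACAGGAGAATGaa
Hoxd10: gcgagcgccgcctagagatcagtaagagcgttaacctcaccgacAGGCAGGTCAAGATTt
Over the 5 codons that both probes held, 10 of 15 bases were identical. Whether RNA of other Hox genes contributed to these spots was not tested.

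Values below are quantile-normalized log2 signals of the deposited spot intensities, and a difference is silenced minus control. "Well above background" is the scanner program's flag, and a call means an adjusted p under 0.05 in a limma fit over all 28649 probes tested. Levels of different probes are not compared with each other, because probes differ in brightness per molecule.

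Pvt1 itself was examined first. Its brightest probe (chr15:62081020-62081079) had log2 signals of 9.65, 9.79, 10.31 and 9.70 on the control arrays and 7.09, 6.69, 7.85 and 6.39 on the silenced arrays, which left 13.8% of the control signal (adjusted p = 0.000682). Silenced replicate 4 was the dimmest array, with 36.8% of spots well above background against 42.6% to 45.4% on the other 7. Control replicate 3 stood a little apart, at a mean r of 0.960 to the other controls where the other arrays had 0.980 to 0.986 within their groups. Of 8 myoblast markers, 7 were well above background on all arrays of both groups, and 4 fell. Myf5 was well above background on none of the 8 arrays. Of 7 markers of differentiating muscle, 3 fell. Over all genes tested, 14.0% were called lower and 5.99% higher. Summed over the list, the differentiating muscle signal ran from 12463 to 16133 in control and from 3333 to 4854 in silenced cells, in linear normalized units. Most of this sum came from Actc1, whose mean log2 signal went from 13.43 to 10.93. Of the 6 tested, 3 were not called, namely Myog (0.13), Tnnt1 (0.60) and Myh3 (-0.58). Liver markers also moved with the groups: 6 of 10 were well above background on all silenced arrays and 1 of 10 on all control arrays, with a summed signal of 929 to 1740 in control and 4935 to 6218 in silenced. Alb, Mup1, Serpina1a, Fgb and Trf reached the flag on 0 of 4 control and 4 of 4 silenced arrays each, while Apoa1 and Tat never did. Of 7 kidney markers, 6 were never well above background. Of 5 fibroblast markers, Dcn and Pdgfra rose, Col1a1 was at -0.45 ± 0.23 (SE, adjusted p = 0.189), and Thy1 and Tcf21 were never well above background. The part of any of these in the Hox results was not tested, and in RNA from whole cultures fewer cells of a type cannot be told apart from less RNA per cell.

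The myoblasts carried a Hox pattern with signal in the Hoxa, Hoxb and Hoxc clusters and in no Hoxd gene. Counting a gene where every array of a group had flagged at least 1 and the same probe as well above background, 18 of 39 Hox genes (46.2%) were detected in control and 18 of 39 in silenced cells, 16 of them in both. Over all gene names on the array the same rule gave 39.5% in control and 36.7% in silenced cells. By cluster, 6 of 11 Hoxa genes, 7 of 10 Hoxb genes and 7 of 9 Hoxc genes were detected in at least 1 group, and 0 of 9 Hoxd genes. By position along the clusters, detection covered 5 of 12 genes of paralogue numbers 1 to 4, 6 of 11 of numbers 5 to 8 and 9 of 16 of numbers 9 to 13. Detected genes thus reached from Hoxa3 and Hoxb3 towards the 3′ ends to Hoxb13 and Hoxc13 at the 5′ ends of Hoxb and Hoxc.

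**Figure D1:**
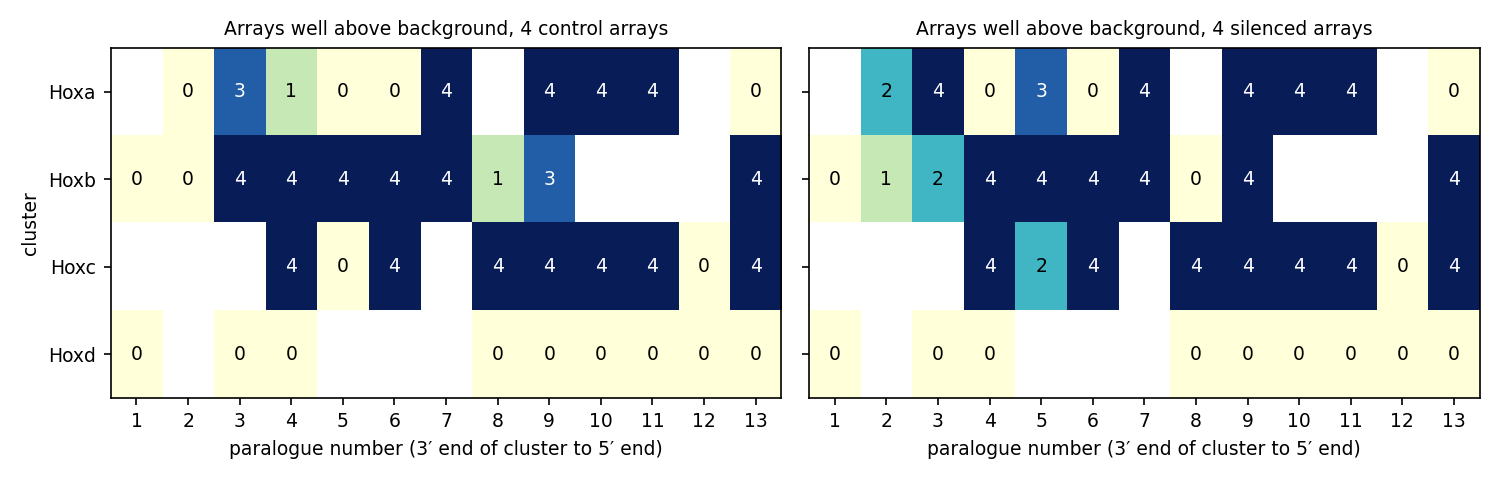
Number of arrays, of 4 per group, on which the best probe of each Hox gene was well above background, by cluster (rows) and paralogue number (columns); white cells hold no value. The Hoxd row is 0 throughout in both groups, and most of the dark cells hold 4 in both.

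The 9 Hoxd genes were all dark. These genes, Hoxd1, Hoxd3, Hoxd4, Hoxd8, Hoxd9, Hoxd10, Hoxd11, Hoxd12 and Hoxd13, had 10 probes on chromosome 2, and none was well above background on any array. Their deposited signals lay between 11.5 and 23.0 intensity units, and 5 of 80 spots passed the weaker flag for a positive and significant signal. These values show no signal at the sensitivity of the arrays, and lower levels of RNA cannot be told from none.

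Outside Hoxd, 4 further genes were well above background on no array, namely Hoxa6, Hoxa13, Hoxb1 and Hoxc12. In all 13 of 39 Hox genes (33.3%) were in this class, against 46.6% of all gene names. Another 6 genes reached the flag on some arrays only. Hoxa2 did so on 2 of 8 arrays, Hoxa5 on 3 and Hoxc5 on 2, all of them silenced. Hoxb2 did so on 1 silenced array, and Hoxa4 and Hoxb8 on 1 control array each. The detected genes that passed the rule in 1 group only included Hoxb3 in control and Hoxa3 and Hoxb9 in silenced cells.

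The number of Hox probes well above background did not separate the groups. It was 24, 25, 21 and 24 on the control arrays and 26, 24, 27 and 20 on the silenced arrays, a difference of 0.75 probes (exact two-sided permutation test, p = 0.743). With 4 arrays against 4 the smallest p that this test can give is 0.0286. On the same arrays the share of all probes well above background was 41.7% ± 1.19 (SD, n = 4) in control and 38.7% ± 3.16 (SD, n = 4) in silenced cells. As counts of genes with any probe at this flag, the arrays held 19 to 21 in control and 18 to 24 in silenced cells.

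Of the 39 genes, 25 had a probe that could be tested, meaning at least 3 positive and significant values in each group. With each gene represented by its brightest tested probe, 6 rose, 4 fell and 15 did not pass the test. Over all 19360 genes tested, 5.99% were called higher and 14.0% lower. Counted by probe, 6 of 30 tested Hox probes were called higher and 5 lower, beside 4.79% and 18.4% of all tested probes. The median difference was 0.36 over the 25 Hox genes and -0.09 over all genes tested, both on the log2 scale. Genes of both directions lay in each of Hoxa, Hoxb and Hoxc. The called genes were picked by their group difference, so groups without overlap below are not further evidence. The share of non-overlap over all genes is not given here. The 14 genes without a test include all of Hoxd, so the counts describe the part of the family that had signal in both groups.

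**Figure D2:**
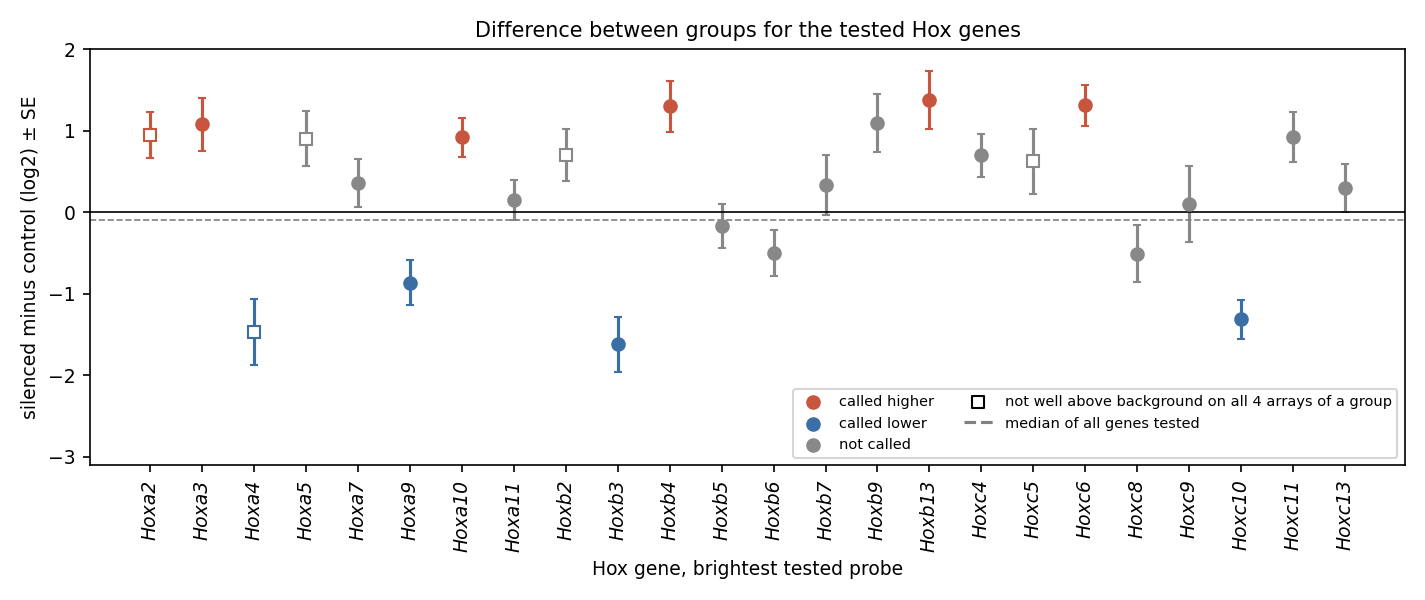
Silenced minus control difference (log2, with its standard error) of 24 tested Hox genes by their brightest tested probe; red points were called higher, blue lower, grey not called, and open squares lacked the well-above-background flag on some array in both groups. Differences ran from -1.62 for Hoxb3 to 1.38 for Hoxb13, around a dashed line at the median of all genes tested.

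The direction of the whole table depended on the scaling, and the Hox counts moved with it. The median difference of all probes was -0.19 with quantile normalization, 0.16 after a shift to the 75th percentile and 0.02 with cyclic loess. Of all probes called, 20.7% were higher with quantile normalization and 61.8% after the 75th percentile shift, and cyclic loess gave 50.7%. The Hox genes called higher were then 12 and 11 of 25, and those called lower 3 in each. The direction of each of the 10 called genes was kept under both scalings.

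Among genes of the 3′ part of the clusters, Hoxa2, Hoxa3 and Hoxb4 rose. Hoxb4, which is known for expanding blood stem cells, had log2 signals of 7.59, 7.87, 8.75 and 8.07 in control and 9.37, 9.47, 9.90 and 8.74 in silenced cells. Control replicate 3 was the highest control and silenced replicate 4 the lowest silenced array, and these 2 values crossed by a small margin. The difference was 1.30 ± 0.32 (SE), or 2.46-fold (adjusted p = 0.0170). Hoxa3, required for the thymus and parathyroid, gave 6.26, 6.56, 6.07 and 6.68 in control and 7.25, 7.41, 8.38 and 6.86 in silenced cells. All silenced arrays lay above all control arrays, by a difference of 1.08 ± 0.32 (SE, adjusted p = 0.0383). Hoxa2, which patterns the hindbrain and second pharyngeal arch, gave 5.24, 4.97, 5.74 and 5.82 against 6.74, 6.11, 6.78 and 5.95. The groups did not overlap, but the well-above-background flag was given on 2 silenced arrays alone. Its rise is therefore given as at least 1.84-fold, for the quantile-normalized values alone (adjusted p = 0.0378).

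Leaving out single arrays ended the call in each of these 3 genes. Hoxb4 lost it without control replicate 2 (difference 1.23, adjusted p = 0.0532). Hoxa2 lost it without control replicates 1, 2 or 4 or silenced replicates 1 or 3 (differences 0.79 to 1.07, adjusted p = 0.0525 to 0.114), and Hoxa3 without any single array other than silenced replicate 4 (0.78 to 1.17, adjusted p = 0.0559 to 0.0866). After normexp background correction the difference was 0.44 for Hoxa2, which ended the call (adjusted p = 0.125), and 0.64 for Hoxa3 (adjusted p = 0.0477).

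In the middle of the clusters only Hoxc6, a gene of the thoracic region, was called, and it rose. Its brightest probe (chr15:102842243-102842302, plus strand) gave 9.13, 9.35, 9.58 and 9.44 in control and 10.78, 10.56, 11.22 and 10.18 in silenced cells. Every silenced array exceeded every control array, with a difference of 1.31 ± 0.25 (SE), or 2.48-fold (adjusted p = 0.00584). Leaving out any single array did not end this call, but the gene's other probe did not move, as described below.

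Hoxa10 and Hoxb13 rose at the 5′ ends. Hoxa10, needed for the hindlimb and the uterus, had log2 signals of 11.03, 11.26, 10.42 and 11.36 in control and 12.04, 11.98, 11.97 and 11.76 in silenced cells by its brightest probe (chr6:52181437-52181496, minus strand). The silenced arrays were close together (SD 0.12, n = 4) and all above the controls (SD 0.42, n = 4), with a difference of 0.92 ± 0.24 (SE), or 1.89-fold (adjusted p = 0.0222). Hoxb13, best known from the tail and the prostate, had 8.48, 8.93, 9.57 and 9.02 in control and 10.62, 10.34, 11.08 and 9.47 in silenced cells. Silenced replicate 4 fell just inside the control range, and the difference was 1.38 ± 0.36 (SE), or 2.60-fold (adjusted p = 0.0224). The Hoxa10 call ended without silenced replicate 1 (0.88, adjusted p = 0.0593). The Hoxb13 call ended without control replicates 1, 2 or 4 or silenced replicates 1 or 3 (1.14 to 1.38, adjusted p = 0.0519 to 0.0603).

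**Figure D3:**
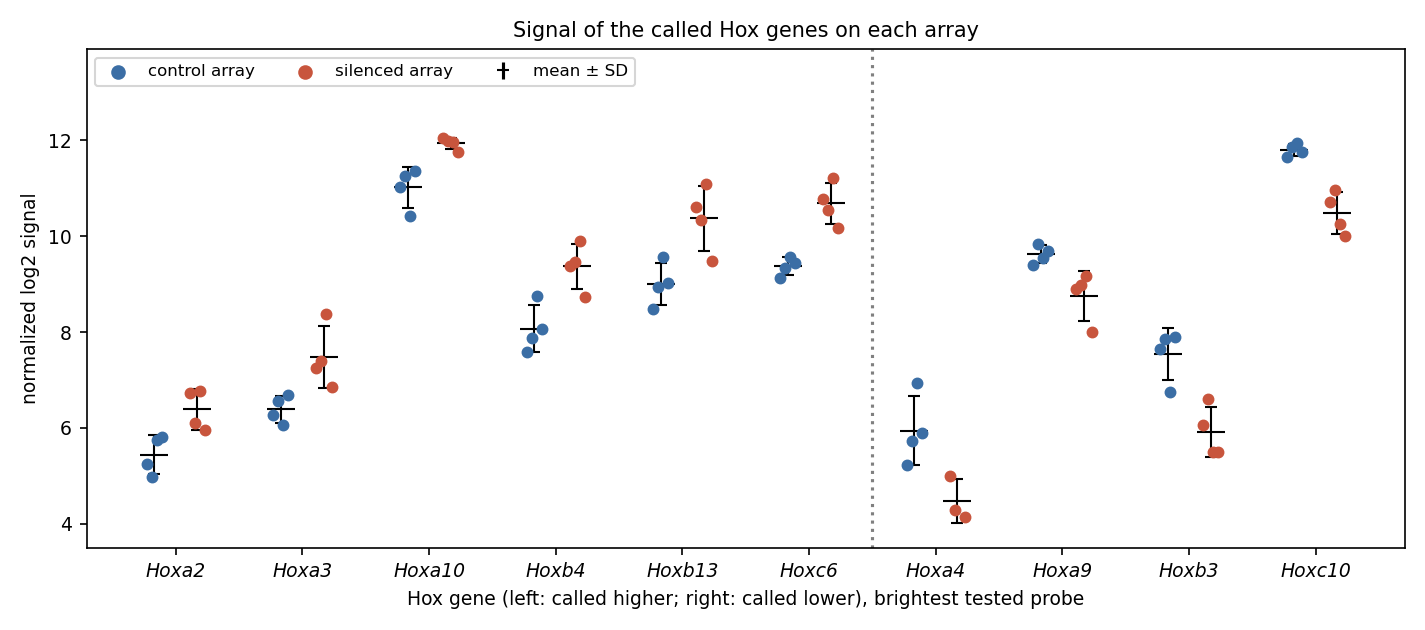
Normalized log2 signal of the 10 called Hox genes on each array (points), with the mean and SD of each group in black; 6 genes called higher stand left of the dotted line and 4 called lower right of it. Hoxb4 and Hoxb13 overlapped between groups and the other 8 did not, which is no further evidence, since the genes were picked by their group difference. Hoxa4 has no value on 1 silenced array.

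Hoxc10 fell, as did Hoxb3 by its brightest probe. Hoxc10, a gene of the lumbar region and hindlimb, had log2 signals of 11.65, 11.86, 11.94 and 11.75 in control (SD 0.12, n = 4) and 10.72, 10.96, 10.26 and 10.01 in silenced cells (SD 0.43, n = 4). The groups lay well apart, by -1.31 ± 0.24 (SE), which is 2.48-fold lower in silenced cells (adjusted p = 0.00512). Hoxb3, a hindbrain gene, had 7.64, 7.86, 6.74 and 7.90 in control and 6.07, 6.60, 5.50 and 5.50 in silenced cells by its brightest probe. No silenced array reached the lowest control, and the difference was -1.62 ± 0.34 (SE), or 3.07-fold lower (adjusted p = 0.00895). The flag for well above background was held on 4 control arrays and 1 silenced array. Neither call was lost when any 1 array was left out, but the Hoxc10 call was lost with the methods' t-test in place of limma. The Hoxb3 call was lost when dim spots were not masked (-1.30, adjusted p = 0.0534) and when its probes were averaged (-0.33, adjusted p = 0.418).

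Hoxa9 and Hoxa4 fell with less margin. Hoxa9, a gene of the lower trunk that is also active in leukaemias, had 9.40, 9.85, 9.56 and 9.69 in control and 8.91, 8.97, 9.17 and 7.997 in silenced cells (chr6:52174227-52174286, minus strand). All silenced arrays were below all control arrays, by -0.86 ± 0.27 (SE), or 1.82-fold (adjusted p = 0.0470). Its neighbour Hoxa10 went the other way on the same 8 arrays. Hoxa4, a neck gene, gave 5.23, 5.73, 6.93 and 5.89 in control and 5.00, 4.29 and 4.14 on the 3 silenced arrays with a value. It was well above background on 1 control array and no silenced array. Its fall is therefore given as at least 2.24-fold, for the quantile-normalized values alone (adjusted p = 0.0316). For Hoxa9, leaving out any array other than silenced replicates 3 or 4 ended the call (-0.94 to -0.79, adjusted p = 0.0572 to 0.127). For Hoxa4, leaving out control replicates 2 or 4 did so (-1.54 and -1.49, adjusted p = 0.0613 and 0.0691). The Hoxa4 call also ended under other scalings: the difference was -0.94 after the 75th percentile shift, -1.07 with cyclic loess, -1.18 in the authors' series table and -0.40 after normexp background correction (adjusted p = 0.0592, 0.0532, 0.101 and 0.116).

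The position of the arrays on the slide touched most of these calls. The upper row held control replicates 1, 2 and 3 and silenced replicate 1, and the lower row held control replicate 4 and silenced replicates 2, 3 and 4. With the row as a block, Hoxb3, Hoxc6 and Hoxc10 remained called and the other 7 did not (adjusted p = 0.0662 to 0.163). Within the upper row and within the lower row the differences had the sign of the whole comparison for all 10 genes. For Hoxc10 they were -1.09 and -1.34, for Hoxb3 -1.34 and -2.04, for Hoxc6 1.43 and 1.22, and for Hoxb13 1.63 and 1.28. Hoxa2 (1.42 and 0.46), Hoxa10 (1.14 and 0.54) and Hoxa4 (-0.97 and -1.67) differed more between rows. The remaining genes gave 1.30 and 1.29 for Hoxb4, 0.95 and 0.86 for Hoxa3 and -0.69 and -0.98 for Hoxa9.

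Of the 15 tested genes that were not called, 12 were detected, and several of these changed when silenced replicate 4 was left out. Leaving out that array also moved the whole table: higher calls over all probes went from 1373 to 3653, or from 20.7% to 41.7% of calls, and the median difference from -0.19 to -0.02. Hoxc9, of the thoracic region, had 11.59, 11.86, 12.33 and 11.69 in control and 12.29, 12.32, 12.85 and 10.41 in silenced cells. Its groups overlapped through silenced replicate 4, with a difference of 0.10 ± 0.47 (SE), which was 0.62 without that array and between -0.19 and -0.0062 without another silenced array. Around its spot on silenced replicate 4, 48.4% of 215 nearby spots lay more than 1 log2 below the lowest other silenced array, against 2.87% over the whole array. The dimmer Hoxa9 probe lay in the same part of that array (47.6% of nearby spots low). Hoxc11, of the lower trunk, gave 9.18, 9.74, 8.63 and 9.57 against 10.48, 10.21, 10.55 and 9.57, a difference of 0.92 ± 0.31 (SE, adjusted p = 0.0569) that passed without silenced replicate 4 (1.13, adjusted p = 0.0173). Hoxb9 (1.10 ± 0.36, adjusted p = 0.0526) and Hoxc4 (0.70 ± 0.27, adjusted p = 0.0879) also missed the threshold and passed without the same array (1.36 and 0.86, adjusted p = 0.0150 and 0.0277). Hoxc4 passed without control replicate 3 as well (0.85, adjusted p = 0.0397). Hoxa5, well above background on 3 silenced arrays and with 3 control values, was at 0.90 ± 0.34 (adjusted p = 0.0892) and passed without silenced replicate 4 (1.15, adjusted p = 0.0157). With every array kept, Hoxc11, Hoxb9, Hoxc4 and Hoxa5 also passed after the 75th percentile shift, with cyclic loess and in the authors' series table. Higher calls over all probes were more frequent under those scalings too.

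The other detected genes did not pass the test, and their groups overlapped. Hoxa7 was at 11.04 ± 0.35 in control and 11.40 ± 0.52 in silenced cells (SD, n = 4). Hoxa11, a forearm and lower leg gene, was at 10.94 ± 0.32 and 11.09 ± 0.31, and Hoxc13, a hair follicle gene, at 8.97 ± 0.60 and 9.28 ± 0.17. Their differences were 0.36 ± 0.30, 0.15 ± 0.24 and 0.30 ± 0.30 (SE). Hoxb6 (-0.49 ± 0.28), Hoxc8 (-0.51 ± 0.35), Hoxb7 (0.34 ± 0.37) and Hoxb5 (-0.17 ± 0.27) were also not called, and for Hoxb5 the sign turned under other scalings (0.15 after the 75th percentile shift and 0.16 with cyclic loess). The dim genes Hoxb2 (0.71 ± 0.32) and Hoxc5 (0.62 ± 0.40) did not pass either, although the Hoxb2 values of the groups did not overlap.

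Probes of the same gene did not always move together. Among the Hox genes, 4 had more than 1 tested probe. Hoxc6 had 2 probes that began 210 bases apart on the chromosome. The upstream probe (chr15:102842033-102842093) gave 9.63, 10.19, 9.96 and 10.03 in control and 9.81, 9.96, 10.00 and 9.43 in silenced cells, with a difference of -0.15 ± 0.22 (SE, adjusted p = 0.662), while the downstream probe rose by 1.31. Upstream minus downstream, the log2 values were 0.50, 0.85, 0.38 and 0.59 on control arrays and -0.97, -0.60, -1.21 and -0.75 on silenced arrays. These differences did not overlap between groups (exact two-sided permutation p = 0.0286, the smallest possible, and 0.0857 adjusted over the 6 probe pairs).

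Hoxb3 had 3 tested probes. The brightest probe fell by 1.62 on the log2 scale, while a probe at chr11:96202860-96202919 gave 5.35, 5.67, 4.85 and 4.82 in control and 6.59, 5.97, 6.51 and 5.43 in silenced cells (0.95 ± 0.31 SE, adjusted p = 0.0541), with the flag on 2 silenced arrays alone. The remaining probe, whose 60 bases are spread over chr11:96202427-96205434, was at -0.54 ± 0.29 (SE, adjusted p = 0.216). The probe at chr11:96202860-96202919 minus the brightest probe moved from -2.37 ± 0.51 in control to 0.21 ± 0.71 in silenced cells (SD, n = 4, exact permutation p = 0.0286, adjusted 0.0857).

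For Hoxa9 both probes fell. The dimmer one, which is split over chr6:52174477-52175581, gave 8.07, 8.73, 7.88 and 8.56 in control and 7.32, 7.36, 7.38 and 5.34 in silenced cells (-1.46 ± 0.46 SE, adjusted p = 0.0442), and its value on silenced replicate 4 lay in the dim neighbourhood described above. For Hoxa10 the upstream probe (chr6:52181922-52181981) was at 0.29 ± 0.71 (SE, adjusted p = 0.810), with control replicate 3 at 5.67 and the other controls at 8.62 to 9.34. For Hoxb9 the upstream probe (chr11:96136381-96136440) could not be tested, since it had 2 silenced values. It was well above background on 3 control arrays and on no silenced array, which bounds it at no less than 3.34-fold higher in control, while the downstream probe was the one at 1.10.

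**Figure D4:**
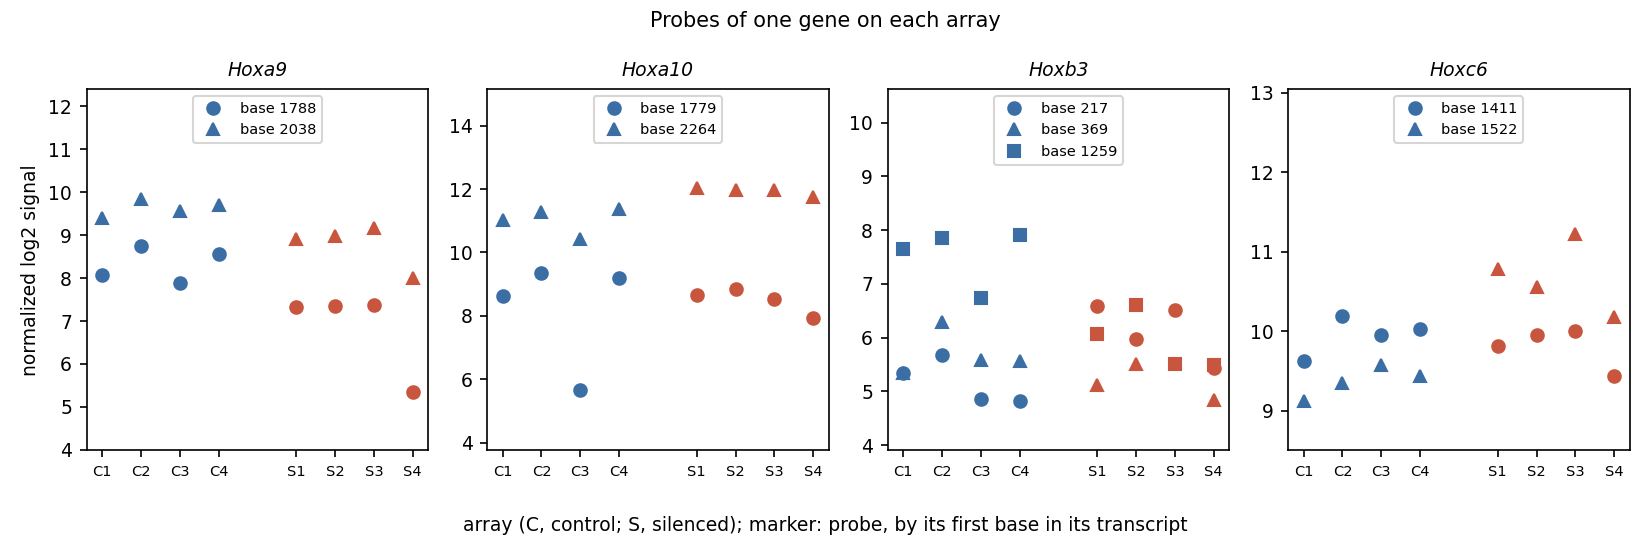
Normalized log2 signal of each tested probe of Hoxa9, Hoxa10, Hoxb3 and Hoxc6 on the 4 control (blue, C1 to C4) and 4 silenced arrays (red, S1 to S4), with 1 marker shape per probe, named by its first base in its transcript. In Hoxc6 the probe at base 1522 is higher on all silenced than on all control arrays while the probe at base 1411 overlaps between groups, and in Hoxb3 the probe at base 1259 is lower on all silenced arrays.

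Some probes held the letters of a polyadenylation signal (AATAAA or ATTAAA, read on the probe's own strand), and their distance to the transcript end was not measured. Among the tested Hox probes they included Hoxa11, Hoxb2, Hoxb4, Hoxb7, Hoxb13, Hoxc4 and the downstream probe of Hoxc6. Of the 8 such Hox probes, 3 were called higher and 0 lower, with a median difference of 0.70. Of the other 22, 3 were called higher and 5 lower, with a median of 0.20. Over the whole array, of 4265 tested probes with the signal, 10.2% were higher and 6.64% lower, and of 24384 without it, 3.84% were higher and 20.4% lower. The medians were 0.17 and -0.26. Its part in the Hox differences was not tested.

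Non-coding RNAs of the clusters were followed through a list of 11, of which 8 had probes. Of 7 tested, 1 rose and 1 fell, against 5.99% and 14.0% of all genes. Hoxa11os, transcribed against Hoxa11, rose from 11.04 ± 0.17 to 12.12 ± 0.32 (SD, n = 4), a difference of 1.08 ± 0.22 (SE, adjusted p = 0.00785). Its other probe gave 1.10 (adjusted p = 0.0130). The probes overlap on the chromosome (chr6:52199727-52199786 and chr6:52199709-52199768), so they are not separate readings of the transcript. Hoxa11 itself was at 0.15. Hoxaas2 fell (adjusted p = 0.0115), from 6.03 in control to 4.68 over the 3 silenced arrays with a value, and with 1 control array and no silenced array well above background the fall is given as at least 2.42-fold. Its probe (chr6:52119417-52119476, plus strand) lies between 2 probes of Hoxa3 on the other strand, 1 of which was the Hoxa3 probe that rose. Haglr, read from the strand opposite to the Hoxd genes between Hoxd3 and Hoxd1, was well above background on 4 control and 2 silenced arrays, with a difference of -0.50 ± 0.22 (SE, adjusted p = 0.139). Signal from the Hoxd cluster was thus present in Haglr, although not in any Hoxd gene. Hoxd3os1 was never well above background. Hoxaas3, Hoxb5os, Mira and Hottip were not called (0.04, 0.09, 0.36 and 0.90).

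The TALE cofactors, partners of Hox proteins on DNA, were nearly all present: 10 of 11 were well above background on all 8 arrays, and Pbx4 was on none. Of 10 tested by the brightest probe, 1 fell and 0 rose, beside the 14.0% lower and 5.99% higher over all genes. Pbx3 fell from 10.61 ± 0.21 to 9.72 ± 0.24 (SD, n = 4), by -0.88 ± 0.21 (SE, adjusted p = 0.0151). A Pbx3 probe nearer the 3′ end, holding a polyadenylation signal, was at 0.47 ± 0.28 (adjusted p = 0.250). Another, dimmer Pbx3 probe was called lower, by at least 2.91-fold (adjusted p = 0.0416), with the flag on 4 control arrays and no silenced array. The call of the brightest Pbx3 probe was lost without control replicate 2. Dimmer probes of other cofactors, among them the following, were called lower where the brightest was not: Pbx2 (at least 2.88-fold, adjusted p = 0.0300), Meis2 (-0.79, adjusted p = 0.0300), Tgif2 (-1.66, adjusted p = 0.0125) and both further probes of Meis3 (adjusted p = 0.00552 and 0.00923). Median difference over the list was -0.19.

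Of 16 regulators of Hox transcription, 10 were tested, 1 rose and 4 fell by the brightest probe, beside the same shares over all genes. Cyp26b1, which degrades retinoic acid, rose from 7.64 ± 0.27 to 9.13 ± 0.40 (SD, n = 4), by 1.49 ± 0.25 (SE, adjusted p = 0.00357). Kmt2a, the histone H3 lysine methyltransferase that maintains Hox expression, fell by 1.12 ± 0.22 (SE, adjusted p = 0.00631), and Men1, which encodes its partner menin, fell by 0.62 ± 0.20 (SE, adjusted p = 0.0469). Rarb, a retinoic acid receptor, fell by 1.60 ± 0.38 (SE, adjusted p = 0.0152), and was well above background on 4 control and 3 silenced arrays. Gdf11, a secreted factor that sets where 5′ Hox genes start along the trunk, fell by 1.27 ± 0.28 (SE, adjusted p = 0.0117), with 4 control and 2 silenced arrays above background. Rara, Rarg, Rxra, Rxrb and Gmnn were not called by their brightest probes (-0.12 to 0.51). A dimmer probe of Rara was called lower (-1.03, adjusted p = 0.00819), as were those of Rxrb (-2.03, adjusted p = 0.00171, and at least 4.56-fold, adjusted p = 0.00166). The caudal genes Cdx1, Cdx2 and Cdx4 were well above background on 0, 1 and 1 control arrays and on no silenced array.

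Of 13 neighbours of the clusters, 10 were tested, and 1 rose and 1 fell by the brightest probe, where 5.99% of all genes rose and 14.0% fell. Dimmer probes of Hibadh (-0.83, adjusted p = 0.0227) and Mtx2 (-0.69, adjusted p = 0.0417) were called lower. Cbx5, beyond Hoxc4 and encoding a heterochromatin protein, rose by 0.81 ± 0.23 (SE, adjusted p = 0.0296) at a probe with a polyadenylation signal, while its other probe was at -0.40 ± 0.37 (SE, adjusted p = 0.484). Calcoco1, beyond Hoxc13 at the other end of the cluster, fell by 1.30 ± 0.26 (SE, adjusted p = 0.00729), and its other, dim probe was at 0.79 ± 0.45 (SE, adjusted p = 0.241). Evx2, a homeobox gene that lies beyond Hoxd13, was well above background on all arrays by 1 of its probes (7.91 ± 0.07 and 7.28 ± 0.40, SD, n = 4), with a difference of -0.63 ± 0.23 (SE, adjusted p = 0.0760). That probe is 83.3% G and C bases, and the other Evx2 probe was well above background on no array.

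Promoter sequences were available for 22 Hox genes (24 promoters, RefSeq, build GRCm38.p6), taken as the 250 bases before the start. The group-10 paralogues are shown because Hoxa10 was among the detected genes and Hoxd10 was dark. Capitals mark matches to the TATA box letters TATAAA, the CCAAT box, TGATNNAT (a Hox and Pbx composite site) or TTTATG (a caudal-type site), searched on both strands.
Hoxa10, chr6:52234940-52235189, minus strand: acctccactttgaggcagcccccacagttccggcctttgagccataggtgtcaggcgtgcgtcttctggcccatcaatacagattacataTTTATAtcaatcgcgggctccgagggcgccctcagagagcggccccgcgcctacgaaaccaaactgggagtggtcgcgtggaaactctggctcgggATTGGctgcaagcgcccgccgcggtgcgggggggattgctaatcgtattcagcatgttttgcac
Hoxd10, chr2:74691641-74691890, plus strand: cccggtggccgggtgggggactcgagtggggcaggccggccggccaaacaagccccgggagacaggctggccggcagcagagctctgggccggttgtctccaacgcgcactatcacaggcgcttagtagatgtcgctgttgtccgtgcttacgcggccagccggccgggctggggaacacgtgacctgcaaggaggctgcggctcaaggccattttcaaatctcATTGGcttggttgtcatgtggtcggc
The table held a second Hoxa10 promoter (chr6:52240855-52241104), which had none of these motifs and 7 CG dinucleotides. The sequences printed both held CCAAT on the strand opposite to transcription, 64 and 26 bases before the start, and Hoxa10 also held TATAAA at 160 bases. The number of CG dinucleotides was 20 in each, against a median of 6 over all 32851 promoters. CCAAT was in 1 of 8 promoters of detected Hox genes and in 13 of 16 promoters of Hox genes that were not, beside 33.8% of all promoters. TGATNNAT was in 0 of 8 and 4 of 16 (7.68% of all), TATAAA in 1 of 8 and 3 of 16 (12.4%), and TTTATG in 1 of 8 and 4 of 16 (10.8%). Only 7 detected genes had a promoter in the table, and 9 of the 15 others were Hoxd genes, so these shares describe the table and not the family.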

How the data were processed

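Expression was measured on 8 one-colour arrays, 4 per group by GEO's labels. The authors deposited 1 scanner file per array with spot intensity, written by Feature Extraction (12.0.0.7 per the file headers, 10.7.3.1 per the labels), which had subtracted background. Flags of 0 or 1 in the same deposited files (other units) mark spots positive and significant, well above background or outlying. Intensities were not normalized between arrays. A deposited series table of intensity values, the same ranks on a linear scale with a median of 52.9 on every array, served as an alternative; 11548 spots had no value in it. The log2 scale was taken here from the intensities the authors deposited.

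Following the study's methods, spots not positive and significant were set to missing, values were quantile normalized and spots of 1 probe averaged. Control and outlier spots were also left out. Probes with at least 3 values per group were tested by limma 3.58.1 in R 4.3.3 (lmFit, eBayes) on a design of group alone, with Benjamini-Hochberg adjustment at 0.05. A gene was represented by its tested probe with the highest mean. For bounds, each dim array was given the lowest value of any probe well above background, or the probe's own where higher, and the mean of these was subtracted from the bright group's mean. Each bound holds for the quantile-normalized values alone, and differences under other processing can be smaller. Single comparisons used exact permutation tests (scipy 1.17.1). Probe coordinates are those of the files (mm9), and placement in exons or UTRs was not analysed. Sequences came from the probe columns, the labels and RefSeq.

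On simulated data for silenced against control over 28649 probes, 77% of the 100 probes given a 2 log2 change were called, and 3% of the 100 given 1 log2, with 2 false calls among 82. Only 200 probes were changed there, while the real fit called 1373 probes higher and 5269 lower. The adjustment was therefore stricter in the simulation, and its shares do not give the recovery of the real fit. The number of arrays limits the precision. The members, lists and tests were chosen with earlier results of these data known. Genes were named by rule: Pvt1; Hox genes detected in a group or called; genes of the other lists that were called or detected in 1 group only; and Hox genes whose probes disagreed. Hoxa5, Hoxb2, Hoxc5, Evx2, list genes called by a dimmer probe and the markers were named after their values were seen. Nearby spots were those within 10 rows and 10 columns. Figures were drawn with matplotlib 3.10.9. The values of 1 Hox gene, 1 gene of the other lists and 1 probe sequence are not reported here, although the genes are in the counts.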

Additional observations from a re-analysis of the deposited data

Results flagged for a closer look

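Among 61 groups of 4 arrays examined for the tested Hox probes, Pvt1 and the Hox probe counts, 1 held an array far from the other 3, by a gap to the nearest array of 0.973 of the group's range. Chance flags about 1 in 20 such groups. It was the dimmer Hoxa9 probe (base 1788 of its transcript), at 5.34 on silenced replicate 4 against 7.32 to 7.38 on the other silenced arrays, in the part of that array where 47.6% of nearby spots were also low.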

How the results depend on the processing

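Pvt1 stayed called under all alternatives that gave it a value (-3.14 to -2.19). Hox genes called higher (6) and lower (4) became 12 and 3 after the 75th percentile shift, 11 and 3 with cyclic loess, 11 and 3 in the authors' series table, 11 and 2 without the mask, 1 and 2 when blocked by slide row and 1 and 1 with the methods' t-test (two-sided, unequal variance, adjusted here by Benjamini-Hochberg), by which 13 of 24 passed before adjustment. The replicate number as a block gave 3 and 2, and 5 of the 10 called genes kept their call. Same-numbered arrays correlated at -0.04, 0.19, 0.22 and 0.06, so the numbers were not taken as pairs; control replicates 2 and 3 alone correlated best with their own number. Leaving out 1 array gave 2 to 11 higher and 2 to 4 lower, with 11 higher without silenced replicate 4, where higher calls over all probes also went from 1373 to 3653. Fewer arrays also lower the power of the fit. TALE cofactors called (1) became 3 after the 75th percentile shift, 2 with cyclic loess, normexp, the series table or no mask, 5 by the dimmest probe, 0 by the mean of probes or the slide row, and 0 to 1 without 1 array. Hox regulators (5) became 8 after the 75th percentile shift, 3 with the slide row or the t-test, and 4 to 6 without 1 array. Cluster neighbours (2) became 5 after the 75th percentile shift, 4 with cyclic loess, the series table or no mask, 1 with the replicate or slide row block, 0 with the t-test or the mean of probes, and 1 to 4 without 1 array. The cause was not tested. Detected Hox genes were 18 to 24 in each group. The difference in Hox probes per array (0.75) turned to -0.75 with the weaker flag, and ran from -0.167 to 2.17 without 1 array. Hoxc6 turned to -0.15 by its dimmest probe. Hoxb5 turned to 0.15 after the 75th percentile shift, 0.16 with cyclic loess, 0.19 in the series table, 0.18 without the mask and ran from -0.339 to 0.0179 without 1 array, turning without control replicate 3. Hoxc9 ran from -0.19 to 0.62 without 1 array. Of 472 alternatives over 24 tested genes, 373 kept direction and call, 60 lost a call, 30 gained one and 9 turned.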
